A study of Saccharomyces cerevisiae with 8 samples.

Results

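The regions described here are the interiors of long yeast genes. They were taken from a partial copy of the transcript list of the study, with a start and an end for 1614 transcripts once chromosome 10 is left out, and long genes outside it were not analysed here. The transcripts of at least 2500 bp were kept, 127 on the Watson strand and 130 on the Crick strand. The strand was read from the W or C of the systematic name, and each region runs from 1000 bp after the start to 500 bp before the end of the transcript. The shortest of these transcripts was 2500 bp and the longest left out was 2492 bp. The interiors had a median length of 1716 bp (from 1000 to 13512 bp), summed to 547102 bp or 4.53% of the genome, and did not overlap each other. They lie on chromosomes 1 (17 interiors), 11 (54), 12 (87), 13 (75) and 14 (24).

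Nucleosomes over a yeast gene are counted from the nucleosome-depleted region at its promoter, and those downstream, called +1, +2 and so on, form a regular array whose phase is set at the start of the gene. Positions shared between cells fade with distance from that start, so that deep in a long gene the nucleosomes of different cells overlap. Spacing along a single molecule can stay regular there even where positions differ from cell to cell.

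Both strains of the study were profiled by MNase-seq, in which micrococcal nuclease trims formaldehyde-crosslinked chromatin to the DNA that nucleosomes protect. The H3 shutoff strain (DCB200.1) lacks HHT1 and carries HHT2, its other gene for histone H3, under the GAL1 promoter, and the wildtype strain (YEF473A) keeps its own H3 genes. Both were grown in galactose (0 hours) and then moved to dextrose for 3 hours, so that the change of carbon source is shared by the strains. By the description of the study H3 depletion stops the cells in G2/M, so that at 3 hours depletion and arrest cannot be told apart, and the level of H3 itself was not measured in these files. Each strain gave 2 cultures, H3 shutoff replicates 3 and 4 and wildtype replicates B and C, and each culture gave a library at both times, 8 in all. These are the paired-end replicates, and the single-end replicates that the study also describes were not analysed here. The wildtype titles give B and C under the same replicate number. They were taken as separate cultures because the study counts them as separate replicates. Throughout, the values of a group are given with replicate 3 before 4 and B before C. Between 2 and 2 cultures an exact two-sided permutation test can give no p below 0.333.

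Each library held 5000001 fragments of 100 to 200 bp on 16 chromosomes, and between 201897 and 233724 fragment midpoints, called read centers, fell in the interiors. Interior fragments were longer at 3 hours in all 4 cultures. Their mean length was 159.1 and 163.7 bp in H3 shutoff at 3 hours, against 156.9 and 152.5 bp at 0 hours, and 153.6 and 155.0 bp in wildtype at 3 hours, against 149.5 and 144.8 bp at 0 hours. The part of fragment length in the values below was not tested except where fragments of 140 to 160 bp are named.

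The regularity of the array in the interiors was measured by the autocorrelation of the read center density, pooled over the interiors. In every library read centers recurred at about 1 nucleosome repeat. The first repeat was weak in all H3 shutoff libraries and in wildtype replicate B at 0 hours, and stronger in the other wildtype libraries, and the repeats after it were lowest in H3 shutoff at 3 hours. The height of the first repeat, its peak minus the trough before it, was 0.185 and 0.107 in H3 shutoff at 3 hours, against 0.222 and 0.223 at 0 hours, and 0.463 and 0.472 in wildtype at 3 hours, against 0.226 and 0.426 at 0 hours. Both H3 shutoff cultures were lower at 3 hours and both wildtype cultures were higher.

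**Figure D1:**
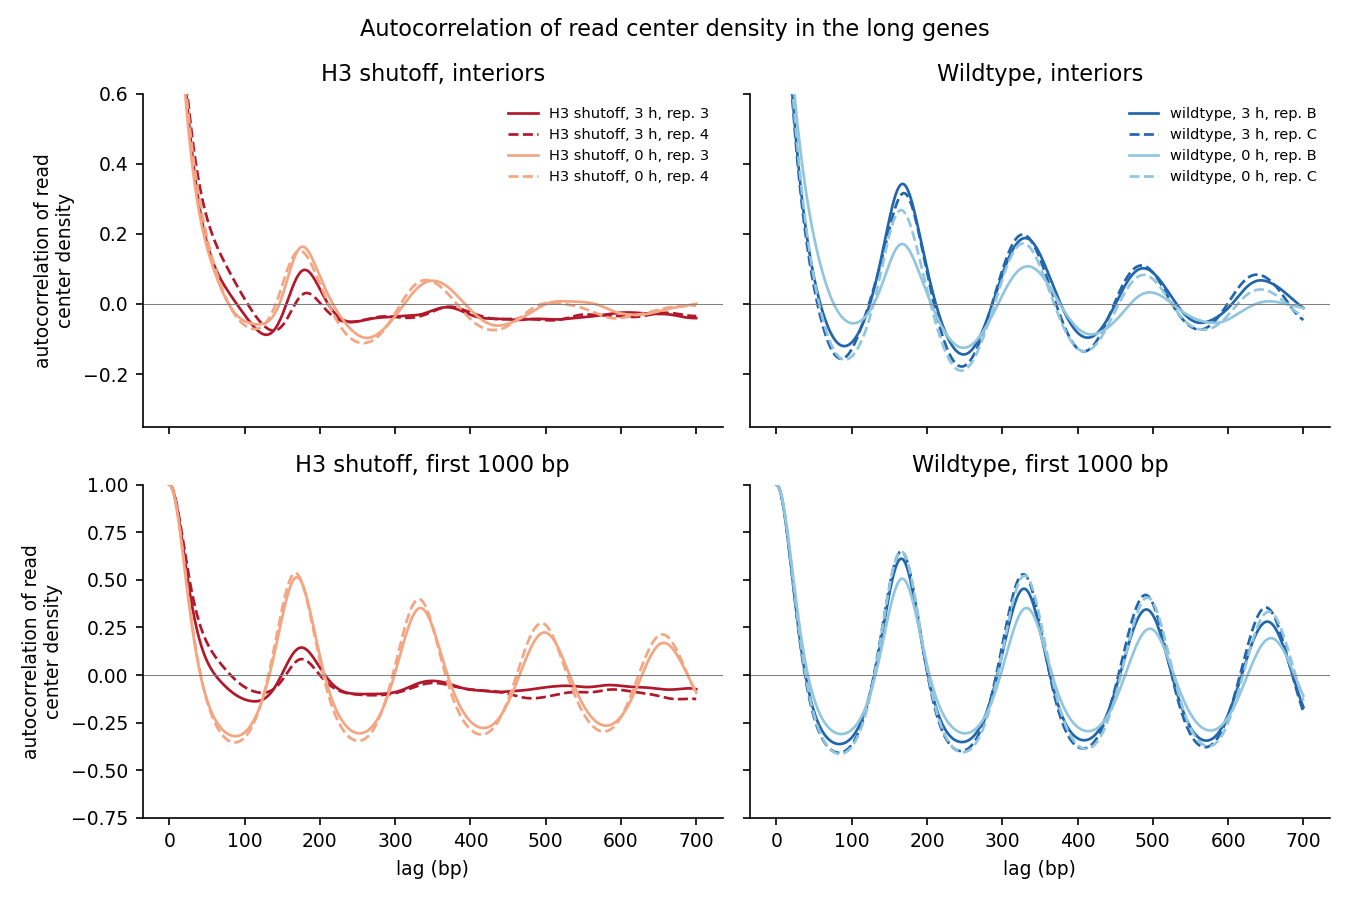
Autocorrelation of the read center density against the lag in bp, pooled over the interiors (top) and over the first 1000 bp of the same genes (bottom), with a line for each library and H3 shutoff on the left. In the interiors the second repeat is near flat in H3 shutoff at 3 hours (heights 0.042 and 0.044) and stands out in wildtype at 3 hours (0.332 and 0.377).

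The mean change of the first repeat was -0.076 ± 0.056 in H3 shutoff and 0.141 ± 0.135 in wildtype (SD, n = 2 cultures each), a difference of -0.217 with an exact permutation p of 0.333. The difference was -0.122 without wildtype replicate B and -0.178 without H3 shutoff replicate 4. At the second repeat the height was 0.042 and 0.044 in H3 shutoff at 3 hours, against 0.163 and 0.180 at 0 hours, and 0.332 and 0.377 in wildtype at 3 hours, against 0.232 and 0.363 at 0 hours. At the third repeat it was 0.010 and 0.017 in H3 shutoff at 3 hours, against 0.070 and 0.078 at 0 hours, and 0.198 and 0.245 in wildtype at 3 hours, against 0.120 and 0.218 at 0 hours. At both of these repeats the H3 shutoff libraries at 3 hours lay below all the other libraries, and the exact permutation p for the difference between the strains was 0.333 for each. The third peak of H3 shutoff replicate 3 at 3 hours was read at 560 bp, the upper limit of the search. Its height of 0.010 is thus not that of a located peak.

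Over the first 1000 bp of the same genes the array was much stronger before depletion. The height of the first repeat there was 0.283 and 0.177 in H3 shutoff at 3 hours, against 0.835 and 0.889 at 0 hours, and 0.974 and 1.057 in wildtype at 3 hours, against 0.816 and 1.064 at 0 hours. After depletion the gene starts came close to the interiors, whose heights were 0.185 and 0.107. The height of the interiors minus that of the first 1000 bp changed by 0.556 ± 0.057 in H3 shutoff and by 0.066 ± 0.018 in wildtype (SD, n = 2 each; exact permutation p = 0.333). In 11243 pieces of 1000 bp from the rest of the genome, which still holds the interiors of long genes that are not members, the height changed by -0.378 ± 0.063 in H3 shutoff and by 0.111 ± 0.044 in wildtype.

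With all fragments, the repeat length read from the first peak was longer in the H3 shutoff interiors at both times. The lag of the peak was 180 and 183 bp in H3 shutoff at 3 hours, against 177 and 173 bp at 0 hours, and 168 and 169 bp in wildtype at 3 hours, against 167 and 166 bp at 0 hours. The strains did not overlap. Over time it changed by 6.50 ± 4.95 bp in H3 shutoff and by 2.00 ± 1.41 bp in wildtype (SD, n = 2 each; exact permutation p = 0.667). With fragments of 140 to 160 bp the mean changes were -3.0 and -1.5 bp, and the H3 shutoff lags were 167 bp in replicate 3 at 3 hours and 169 bp in both cultures at 0 hours. There H3 shutoff replicate 4 at 3 hours lay below wildtype replicate C at 0 hours (166 bp), so that both the direction over time and the separation of the strains rest on the fragment lengths used.

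The mean profile of the long genes, aligned on the +1 nucleosome, shows how far the phased array reached. The +8, +9 and +10 nucleosomes, centered 1130, 1294 and 1442 bp after +1, lie in the interior, and +7, at 971 bp, lies at its border. These positions were set in the profile pooled over the 8 libraries and read in every library. Over the first 1000 bp the first repeat lay at 176 bp in both H3 shutoff libraries at 3 hours, against 166 to 169 bp in the other libraries. Peaks at a longer repeat drift off the set positions, and the part of this in the heights was not tested. The height of a peak was taken above the minimum found 40 to 140 bp downstream of it, in multiples of the genome mean of 0.414 read centers per bp. At +8 it was 0.069 and 0.106 in H3 shutoff at 3 hours, against 0.276 and 0.381 at 0 hours, and 0.672 and 0.668 in wildtype at 3 hours, against 0.742 and 0.665 at 0 hours. The groups at +8 kept a clear order, with H3 shutoff at 3 hours lowest, H3 shutoff at 0 hours next and wildtype highest at both times.

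At +10 the heights were 0.072 and 0.135 in H3 shutoff at 3 hours, against 0.131 and 0.151 at 0 hours, and 0.333 and 0.409 in wildtype at 3 hours, against 0.328 and 0.318 at 0 hours. There H3 shutoff replicate 4 at 3 hours overlapped the H3 shutoff libraries at 0 hours. The mean change at +8 was -0.241 ± 0.049 in H3 shutoff and -0.033 ± 0.052 in wildtype, and at +10 it was -0.037 ± 0.031 and 0.048 ± 0.061 (SD, n = 2 each; exact permutation p = 0.333 at both). For comparison, the height of +1 changed by -2.75 ± 0.372 in H3 shutoff and by 0.398 ± 0.442 in wildtype. At the set position of +5 the H3 shutoff height was -0.005 and 0.001 at 3 hours, against 0.721 and 0.861 at 0 hours. Such a low value at a set position does not show that no peak was left.

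**Figure D2:**
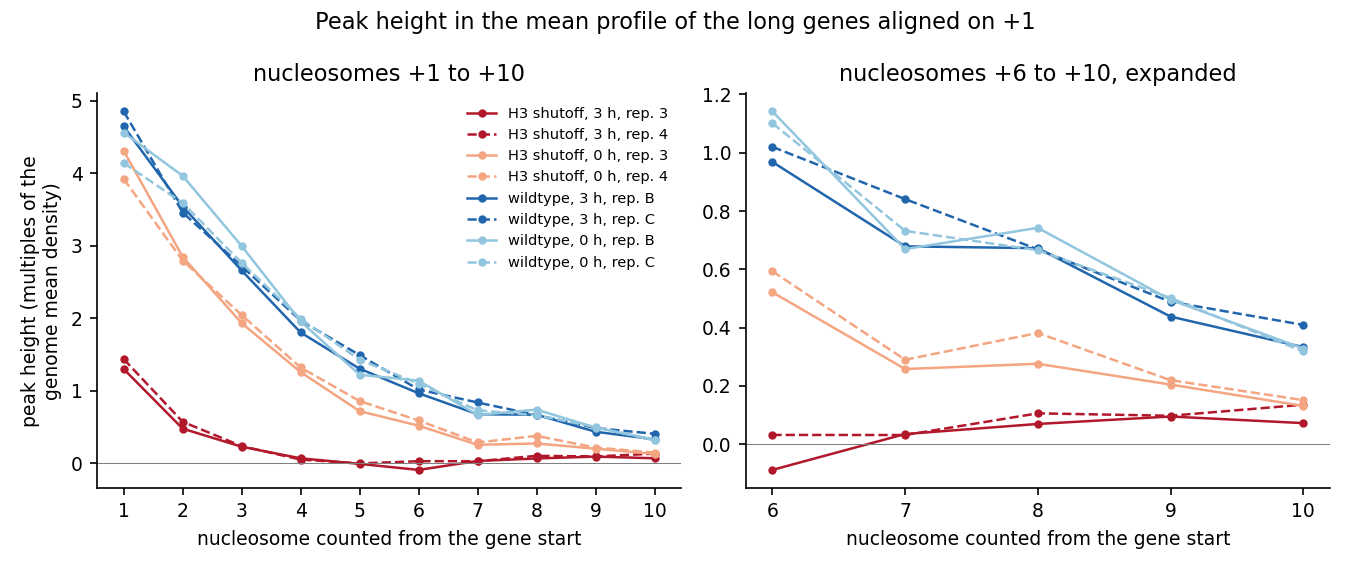
Peak height in multiples of the genome mean density for nucleosomes +1 to +10 in the mean profile of the long genes, with a line for each library and +6 to +10 expanded on the right. At +8 the H3 shutoff libraries at 3 hours sit at 0.069 and 0.106, those at 0 hours at 0.276 and 0.381, and the 4 wildtype libraries between 0.665 and 0.742.

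The spread of a nucleosome is the standard deviation of the read centers within its protected length, as deposited with each called nucleosome. Calls with more than 5 read centers were used, between 2523 and 3012 in the interiors of each library. Interior nucleosomes were broad in H3 shutoff at both times. Their median spread was 39.6 and 39.1 bp in H3 shutoff at 3 hours, against 39.5 and 38.5 bp at 0 hours, and 36.2 and 37.1 bp in wildtype at 3 hours, against 34.6 and 34.8 bp at 0 hours. As deposited, all 4 H3 shutoff libraries were above all 4 wildtype libraries.

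Over the first 1000 bp of the same genes the median spread was 38.4 and 37.8 bp in H3 shutoff at 3 hours, against 30.7 and 29.5 bp at 0 hours, and 22.9 and 22.0 bp in wildtype at 3 hours, against 22.4 and 22.6 bp at 0 hours. At 3 hours the H3 shutoff gene starts were thus nearly as broad as the interiors. Interior minus first 1000 bp, the spread changed by -7.60 ± 0.0184 bp in H3 shutoff and by 2.02 ± 1.17 bp in wildtype (SD, n = 2 each; exact permutation p = 0.333). The share of sharp nucleosomes, with a spread under 25 bp, among the interior calls was 0.503% and 1.23% in H3 shutoff at 3 hours, against 0.555% and 0.609% at 0 hours, and 4.32% and 3.51% in wildtype at 3 hours, against 7.66% and 6.11% at 0 hours. They were rarer in H3 shutoff than in wildtype at both times.

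The spread has a natural scale, since read centers laid evenly over the protected length would give 46.5 and 47.6 bp in H3 shutoff at 3 hours, against 45.6 and 44.2 bp at 0 hours, and 44.7 and 45.0 bp in wildtype at 3 hours, against 43.3 and 41.9 bp at 0 hours. This value moves with the protected length. In a fixed window of 70 bp on each side of the center, chosen after seeing the data, the median interior spread was 34.0 and 32.9 bp in H3 shutoff at 3 hours, against 34.8 and 34.9 bp at 0 hours, and 32.9 and 33.3 bp in wildtype at 3 hours, against 32.2 and 33.4 bp at 0 hours. In that window H3 shutoff was above wildtype at 0 hours, but H3 shutoff replicate 4 at 3 hours was below both wildtype libraries at 3 hours, so that the strains overlapped. There the spread changed by -1.43 ± 0.876 bp in H3 shutoff, where the deposited spread changed by 0.347 ± 0.450 bp, and by 0.313 ± 0.548 bp in wildtype, where the deposited spread changed by 1.99 ± 0.478 bp. The difference between the strains was -1.74 bp in the fixed window and -1.65 bp as deposited (exact permutation p = 0.333 for both).

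Called centers at 3 hours lay farther from those at 0 hours in the H3 shutoff interiors. For each call at 0 hours the distance to the nearest call of the same culture at 3 hours had a median of 26 and 31 bp in H3 shutoff, against 13 and 14 bp in wildtype. Between the 2 replicates of a strain at the same time it was 8 to 10 bp, less than either. No call within 50 bp was found for 34.9% and 37.1% of the interior calls in H3 shutoff, against 22.1% and 23.7% in wildtype. Over the first 1000 bp the median distances were 33 and 43 bp in H3 shutoff, against 5 bp in both wildtype cultures.

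Adjacent calls in the interiors were farther apart at 3 hours in all 4 cultures. The median spacing was 193 and 200 bp in H3 shutoff at 3 hours, against 184 and 178.5 bp at 0 hours, and 174 and 175 bp in wildtype at 3 hours, against 171 and 168 bp at 0 hours. It changed by 15.2 ± 8.84 bp in H3 shutoff and by 5.00 ± 2.83 bp in wildtype (SD, n = 2 each; exact permutation p = 0.333), and the difference of 10.2 bp was 4.0 bp without H3 shutoff replicate 4 and 16.5 bp without replicate 3. Spacings over 220 bp made up 34.0% and 37.6% in H3 shutoff at 3 hours, against 26.6% and 24.0% at 0 hours, and 23.3% and 25.3% in wildtype at 3 hours, against 20.1% and 15.0% at 0 hours. The authors' caller allows no center within a protected length of another, and the median protected length changed by 7.5 ± 6.4 bp in H3 shutoff and by 8.0 ± 4.2 bp in wildtype. The part of this length in the spacing was not tested.

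The read center level was measured in bins of 1000 bp from the start of the gene, where all the genes enter from 1000 bp on, 93 from 2000 bp on and 40 from 3000 bp on. From 1000 to 2000 bp the level was 1.028 and 0.988 in H3 shutoff at 3 hours, against 0.903 and 0.926 at 0 hours, and 0.810 and 0.862 in wildtype at 3 hours, against 0.813 and 0.892 at 0 hours, in multiples of the genome mean. From 3000 to 4000 bp it was 0.986 and 0.911 in H3 shutoff at 3 hours, against 1.009 and 1.013 at 0 hours, and 1.004 and 1.025 in wildtype at 3 hours, against 0.901 and 0.942 at 0 hours. From 1000 to 2000 bp the level was thus higher at 3 hours in both H3 shutoff cultures and lower in both wildtype cultures, by little in replicate B. From 3000 to 4000 bp, where only 40 genes enter, the reverse was found in all 4 cultures. Depth and gene length change together between these bins and cannot be told apart.

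The H3 shutoff change minus the wildtype change in level was 0.109 from 1000 to 2000 bp, 0.00906 from 2000 to 3000 bp and -0.156 from 3000 to 4000 bp (exact permutation p = 0.333, 1.0 and 0.333). Over the whole interiors the levels were 1.031 and 0.995 in H3 shutoff at 3 hours, against 0.966 and 0.979 at 0 hours, and 0.931 and 0.957 in wildtype at 3 hours, against 0.891 and 0.945 at 0 hours. The mean change was 0.041 ± 0.035 in H3 shutoff and 0.026 ± 0.019 in wildtype (SD, n = 2 each; exact permutation p = 0.667). The sign of that small difference turned without H3 shutoff replicate 3 (-0.0105) and with fragments of 140 to 160 bp (-0.0582). All libraries hold the same number of fragments, so that a level is a share and an even loss of nucleosomes everywhere would not show in it.

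The deeper bins hold only the longer genes, so that distance and gene length cannot be told apart in the height of the first repeat. In wildtype at 3 hours that height was lower in the deeper bins. It was 0.631 and 0.639 from 1000 to 2000 bp, 0.428 and 0.350 from 2000 to 3000 bp and 0.323 and 0.222 from 3000 to 4000 bp. At 0 hours it was 0.311 and 0.546, 0.178 and 0.277 and 0.142 and 0.309 in wildtype. H3 shutoff differed less between these bins at both times, with 0.193 and 0.121, 0.174 and 0.093 and 0.172 and 0.096 at 3 hours, against 0.225 and 0.235, 0.207 and 0.161 and 0.183 and 0.202 at 0 hours. From 3000 to 4000 bp wildtype replicate C was lower at 3 hours than at 0 hours, unlike over the whole interiors. The spread from 2000 to 3000 bp was 38.7 and 38.1 bp in H3 shutoff at 3 hours, against 39.6 and 38.5 bp at 0 hours, and 37.3 and 38.7 bp in wildtype at 3 hours, against 34.8 and 36.1 bp at 0 hours. At 3 hours it was lower in both H3 shutoff cultures and higher in both wildtype cultures, with mean changes of -0.640 ± 0.330 and 2.57 ± 0.0489 bp (SD, n = 2 each; exact permutation p = 0.333).

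**Figure D3:**
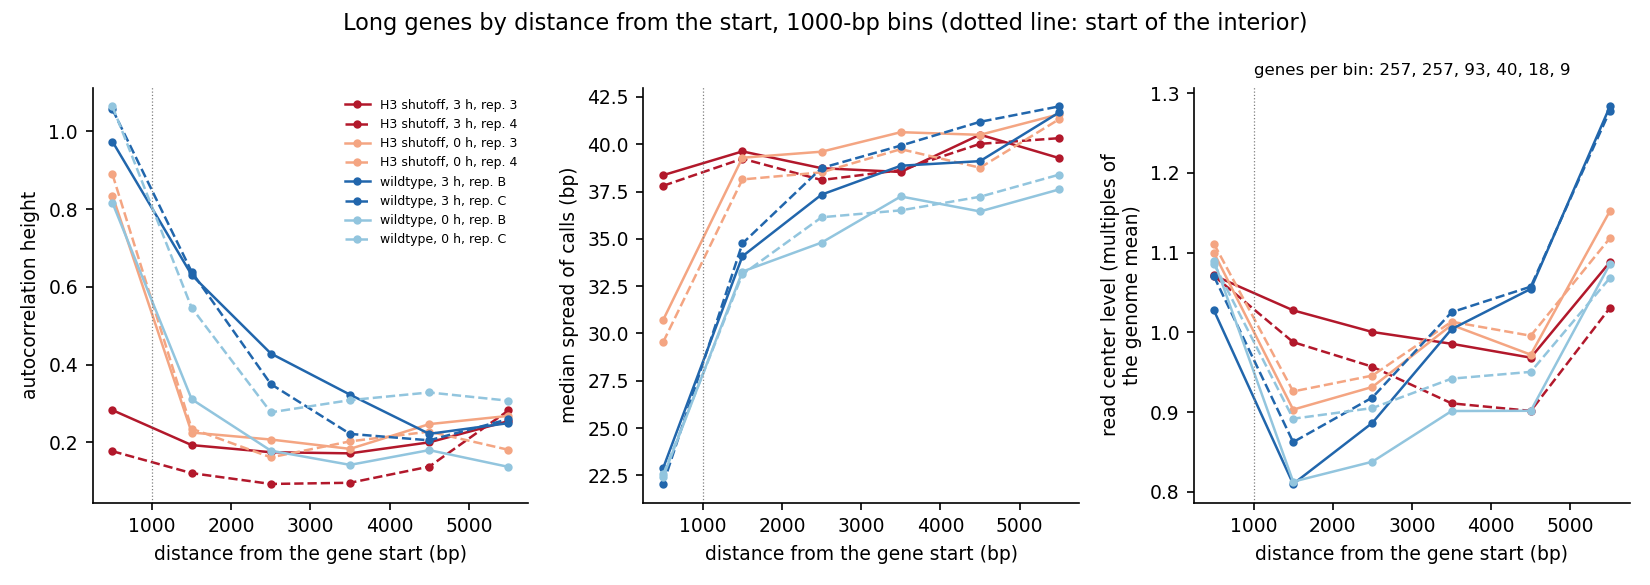
Height of the first autocorrelation repeat, median spread of the calls in bp and read center level in multiples of the genome mean, by distance from the gene start in bins of 1000 bp, with a line for each library. From 1000 to 2000 bp the level is 1.028 and 0.988 in H3 shutoff at 3 hours and 0.810 and 0.862 in wildtype at 3 hours, and fewer than 20 genes reach the bins beyond 4000 bp.

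Single interiors were then tested together with the first 1000 bp of the 1018 transcripts long enough, 1275 gene segments in all. The regularity of a segment is its autocorrelation at 1 lag, the same for all libraries and close to the wildtype repeat, minus that at 83 bp. It is high for nucleosomes evenly spaced at that repeat, in positions shared between cells. The lag lies below the H3 shutoff repeat given above for all fragments. Over the interiors its median was 0.00 and -0.09 in H3 shutoff at 3 hours, against 0.10 and 0.12 at 0 hours, and 0.43 and 0.48 in wildtype at 3 hours, against 0.17 and 0.41 at 0 hours. The number of interiors below 0 was 126 and 173 in H3 shutoff at 3 hours, against 86 and 72 at 0 hours, and 17 and 17 in wildtype at 3 hours, against 69 and 24 at 0 hours. Interiors below 0 were most frequent in H3 shutoff at 3 hours.

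In the limma fit, at a Benjamini-Hochberg adjusted p under 0.05 over all segments, regularity fell in 59 of the interiors in H3 shutoff and rose in 6, where 66.4% of all segments fell and 1.18% rose. In wildtype it rose in 12 and fell in 0 (all segments 3.92% and 0.471%), with 62 interiors at an unadjusted p under 0.05. The H3 shutoff change minus the wildtype change was lower in 84 interiors and higher in 1, against 68.4% and 0.314% of all segments. At the lag of each library's own repeat, an alternative chosen after seeing the data, regularity fell in 51 interiors and rose in 6 in H3 shutoff. Of all 1275 segments 792 fell and 18 rose there. The median change over the interiors was -0.10, against -0.14 at the fixed lag. At the fixed lag the median difference was -0.29 over the interiors and -0.68 over all segments. The share of interiors that fell was below that of all segments, and in the same fit 215 of the first segments of these genes fell in H3 shutoff. In H3 shutoff at 0 hours the interiors already had a median regularity of only 0.10 and 0.12. The height of their first repeat was 0.222 and 0.223 then, against 0.835 and 0.889 over the first 1000 bp. The interiors thus had less room to fall, and the part of this in the shares was not tested. Without H3 shutoff replicate 4 the count of interiors called was 22 in H3 shutoff and 35 in the difference, without replicate 3 it was 43 in H3 shutoff, and without wildtype replicate C it was 36 in wildtype.

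**Figure D4:**
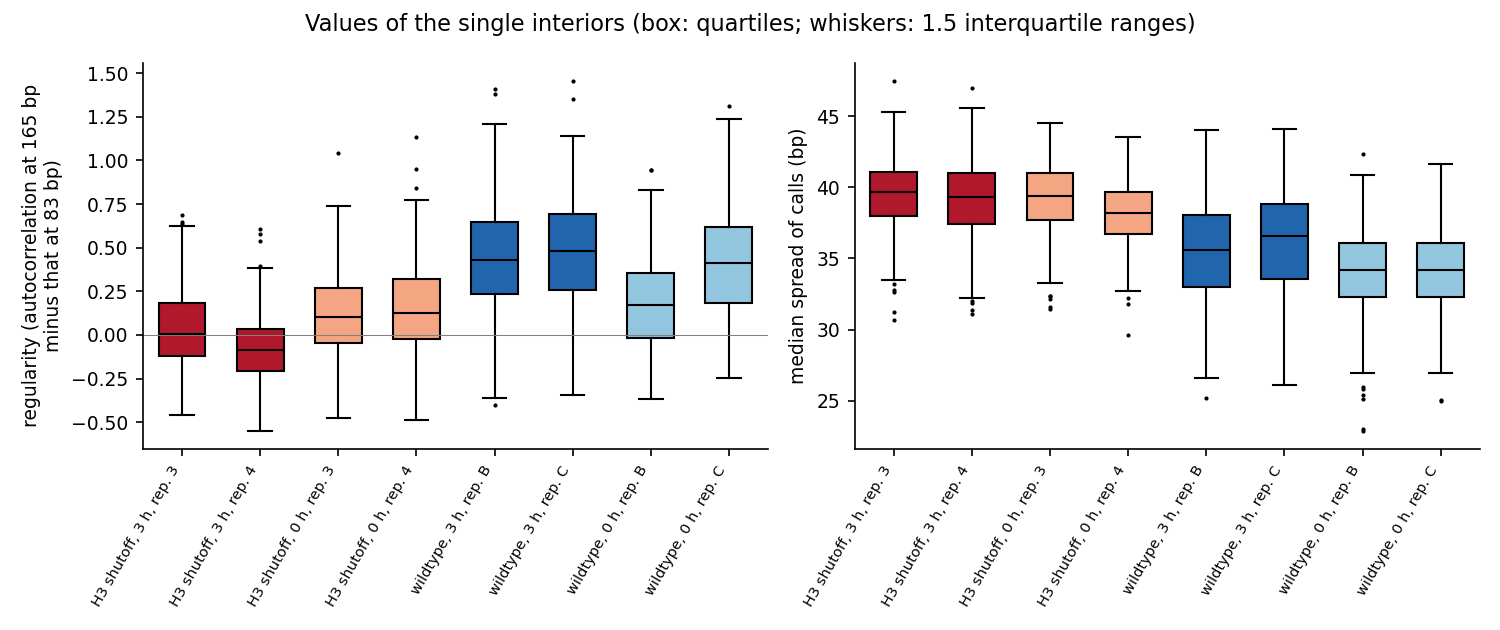
Regularity and median spread of the calls in bp of the single interiors, as a box plot for each library with H3 shutoff left of wildtype. The median regularity is 0.00 and -0.09 in H3 shutoff at 3 hours and 0.43 and 0.48 in wildtype at 3 hours.

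The largest drop in regularity was that of USA1 (YML029W), which encodes a scaffold of the ubiquitin ligase for protein degradation at the endoplasmic reticulum. Its interior had a regularity of -0.16 and -0.28 in H3 shutoff at 3 hours, against 1.04 and 1.13 at 0 hours, and 1.38 and 1.46 in wildtype at 3 hours, against 0.95 and 1.23 at 0 hours. Regular in every other library, it was below 0 in both H3 shutoff libraries at 3 hours, and the difference between the strains was -1.64 ± 0.20 (SE; limma adjusted p = 1.74e-05). MNN4 (YKL201C), needed for mannosylphosphate transfer to cell wall glycans, had -0.46 and -0.27 in H3 shutoff at 3 hours, against 0.55 and 0.70 at 0 hours, and 0.77 and 0.92 in wildtype at 3 hours, against 0.67 and 0.76 at 0 hours. There too only the H3 shutoff libraries at 3 hours were below 0, and the difference was -1.12 ± 0.20 (adjusted p = 0.000165).

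In the next genes by size the wildtype values at 3 hours were above those at 0 hours as well. GSY2 (YLR258W), a glycogen synthase, had a regularity of -0.35 and -0.55 in H3 shutoff at 3 hours, against -0.39 and 0.07 at 0 hours, and 0.57 and 0.56 in wildtype at 3 hours, against -0.32 and -0.17 at 0 hours. SWI6 (YLR182W), a cofactor of the cell cycle transcription factors SBF and MBF, had -0.33 and -0.44 in H3 shutoff at 3 hours, against -0.04 and 0.29 at 0 hours, and 0.67 and 0.77 in wildtype at 3 hours, against -0.02 and 0.44 at 0 hours. STE23 (YLR389C), a metalloprotease that matures the a-factor pheromone, had -0.10 and -0.32 in H3 shutoff at 3 hours, against 0.40 and 0.46 at 0 hours, and 0.89 and 0.84 in wildtype at 3 hours, against 0.37 and 0.62 at 0 hours. In GSY2 the H3 shutoff times overlapped and the H3 shutoff change was -0.30 (limma adjusted p = 0.0646), while the wildtype change was 0.81 (adjusted p = 0.00134). The differences of GSY2, SWI6 and STE23 were -1.11, -1.02 and -1.01, and the calls of all 5 genes held in the 9 alternatives run for each.

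The 1 interior with a higher difference was that of STO1 (YMR125W), the large subunit of the nuclear cap-binding complex. Its regularity was 0.34 and 0.03 in H3 shutoff at 3 hours, against -0.05 and 0.01 at 0 hours, and -0.01 and 0.12 in wildtype at 3 hours, against 0.24 and 0.62 at 0 hours. The difference was 0.58 ± 0.20 (SE; limma adjusted p = 0.0153), and the H3 shutoff change alone was 0.20 (adjusted p = 0.207). Over the alternatives the difference ran between 0.15 and 0.76, and the call was lost without H3 shutoff replicate 3, without wildtype replicate C and with fragments of 140 to 160 bp.

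The spread gave few calls in single interiors. It rose in 23 of the interiors in H3 shutoff and fell in 6 (limma, adjusted p under 0.05), where 55.0% of all segments rose and 1.33% fell. In wildtype it rose in 2 and fell in 0 (all segments 1.49% and 1.10%), with 39 interiors at an unadjusted p under 0.05. The difference between the strains was higher in 5 interiors and lower in 12, against 37.0% and 2.28% of all segments. Its median was -1.18 bp over the interiors and 5.37 bp over all segments, on opposite sides of 0. The count of interiors called in H3 shutoff was 15 without H3 shutoff replicate 3 and 10 without replicate 4. In the difference it was 6 and 10 without these and 5 and 3 without wildtype replicates B and C, and in wildtype it was 0 without either of its replicates, with 19 and 16 at an unadjusted p under 0.05.

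The 2 interiors with the largest rises of the strain difference in spread, RIX7 and OCT1, were sharper than the interior median in H3 shutoff at 0 hours. RIX7 (YLL034C), an ATPase of ribosome biogenesis, had a median spread of 43.4 and 43.4 bp in H3 shutoff at 3 hours, against 36.5 and 35.8 bp at 0 hours, and 26.6 and 26.1 bp in wildtype at 3 hours, against 34.0 and 28.4 bp at 0 hours. OCT1 (YKL134C), a mitochondrial intermediate peptidase, had 42.9 and 42.3 bp in H3 shutoff at 3 hours, against 32.3 and 34.9 bp at 0 hours, and 29.6 and 37.1 bp in wildtype at 3 hours, against 34.2 and 35.9 bp at 0 hours. In both genes the H3 shutoff libraries at 3 hours lay above all the others. The differences between the strains were 12.1 ± 2.80 bp in RIX7 (SE; limma adjusted p = 0.00413) and 10.6 ± 2.89 bp in OCT1 (adjusted p = 0.00912), followed by STE23 with 8.59 bp, SGD1 (YLR336C) with 8.19 bp and SIN4 (YNL236W), of the Mediator tail, with 7.76 bp.

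Among the largest falls, SPH1 (YLR313C), a protein of polarized growth, had a median spread of 33.8 and 31.1 bp in H3 shutoff at 3 hours, against 38.1 and 39.3 bp at 0 hours, and 40.2 and 39.0 bp in wildtype at 3 hours, against 37.0 and 34.8 bp at 0 hours. NUP133 (YKR082W), a subunit of the nuclear pore, had 34.5 and 32.2 bp in H3 shutoff at 3 hours, against 41.4 and 37.1 bp at 0 hours, and 35.3 and 34.4 bp in wildtype at 3 hours, against 33.8 and 29.8 bp at 0 hours. In both genes the H3 shutoff libraries at 3 hours were sharper than those at 0 hours, with changes of -6.25 and -5.89 bp (limma adjusted p = 0.0117 and 0.0158), and PPR1 (YLR014C), a transcription factor of pyrimidine genes, changed by -5.17 bp (adjusted p = 0.0399). TRK2 (YKR050W), a potassium transporter, and STO1 had H3 shutoff changes of -3.65 and 1.41 bp (adjusted p = 0.158 and 0.602), and in STO1 the wildtype spread rose by 10.2 bp (adjusted p = 0.0169). The strain differences were -9.96 bp in SPH1, -9.08 bp in TRK2, -8.95 bp in NUP133, -8.94 bp in PPR1 and -8.80 bp in STO1. Each of these 10 calls, rises and falls, was lost when at least 1 of the cultures was left out.

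Read center counts of the segments were tested with edgeR under equal library sizes. In H3 shutoff 44 of the interiors rose and 11 fell at an adjusted p under 0.05, where 8.24% of all segments rose and 11.9% fell. In wildtype 32 rose and 23 fell (all segments 5.57% and 11.5%), and the difference between the strains was higher in 52 and lower in 28 (12.6% and 11.2%). The median log2 changes over the interiors were 0.06 in H3 shutoff and 0.04 in wildtype, against -0.03 and -0.02 over all segments. With TMM normalization 45 interiors rose and 3 fell in H3 shutoff, where 108 of all 1275 segments rose and 79 fell. DESeq2 called 9 interiors higher and 0 lower there (17 and 2 of all segments). In the difference it called 15 higher and 2 lower (28 and 8 of all segments).

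The cultures did not weigh equally in these counts. With H3 shutoff replicate 4 left out, 0 interiors were called by edgeR in H3 shutoff, with 41 at an unadjusted p under 0.05, and 19 in the difference. Without H3 shutoff replicate 3 there were 10 and 37. Without wildtype replicate B there were 2 in wildtype and 27 in the difference. Without the culture as a block 32 interiors rose and 4 fell in H3 shutoff (69 and 78 of all 1275 segments). In wildtype 15 rose and 20 fell without the block (30 and 94 of all), so that the balance of directions in the wildtype interiors turned.

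The 5 interiors with the largest rises of the strain difference in counts belong to genes of nuclear transport, translation, peroxisomes, glycolysis and RNA decay. PSE1 (YMR308C), a nuclear import receptor, had 1144 and 1171 read centers in H3 shutoff at 3 hours, against 797 and 870 at 0 hours, and 574 and 550 in wildtype at 3 hours, against 862 and 798 at 0 hours. YEF3 (YLR249W), a translation elongation factor, had 909 and 899 read centers in H3 shutoff at 3 hours, against 552 and 574 at 0 hours, and 360 and 459 in wildtype at 3 hours, against 476 and 544 at 0 hours. In both genes H3 shutoff at 3 hours was above every other library and wildtype at 3 hours below every other library. The log2 differences between the strains were 1.04 ± 0.16 for PSE1 (SE; edgeR adjusted p = 7.18e-08) and 1.01 ± 0.17 for YEF3 (adjusted p = 5.61e-07).

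The other 3 showed the same order. PEX6 (YNL329C), an ATPase of peroxisome biogenesis, had 808 and 886 read centers in H3 shutoff at 3 hours, against 570 and 577 at 0 hours, and 476 and 542 in wildtype at 3 hours, against 657 and 720 at 0 hours. PFK2 (YMR205C), a subunit of phosphofructokinase, had 900 and 1098 read centers in H3 shutoff at 3 hours, against 712 and 745 at 0 hours, and 394 and 454 in wildtype at 3 hours, against 574 and 633 at 0 hours. NAM7 (YMR080C), an RNA helicase of nonsense-mediated decay, had 1026 and 1287 read centers in H3 shutoff at 3 hours, against 815 and 840 at 0 hours, and 588 and 657 in wildtype at 3 hours, against 885 and 831 at 0 hours. Their log2 differences were 1.00, 0.96 and 0.94, and the calls of all 5 genes held in the 10 alternatives run for each, those without a culture included.

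**Figure D5:**
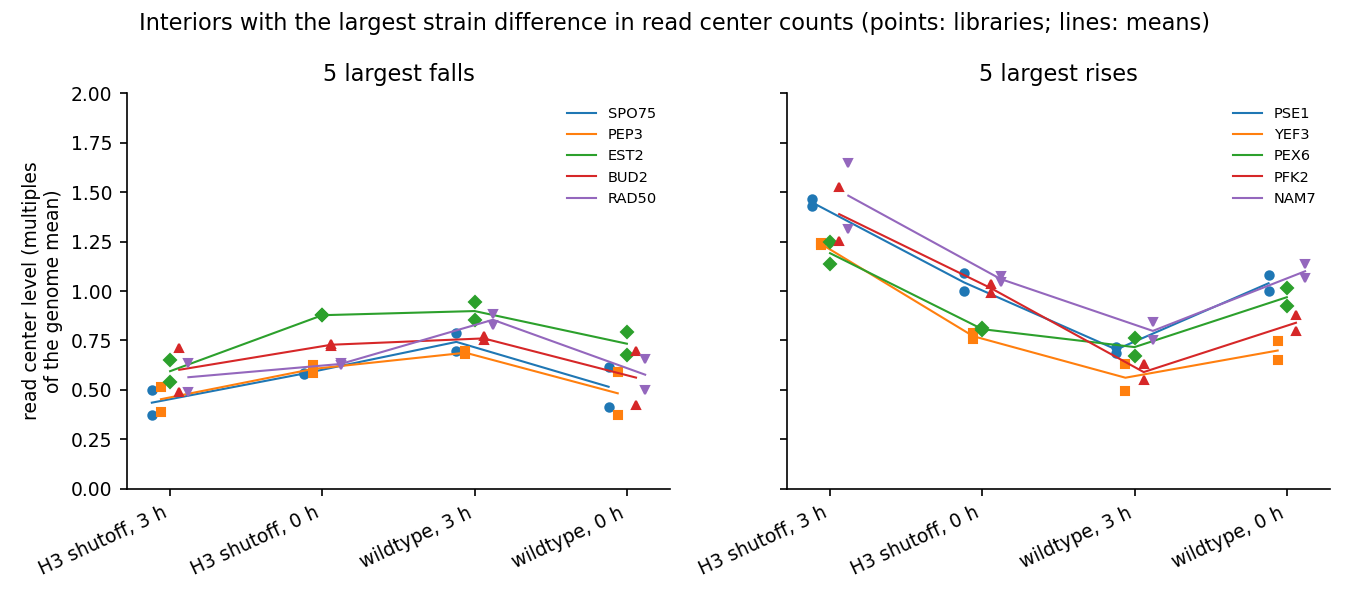
Read center level, in multiples of the genome mean, of the 5 interiors with the largest falls and the 5 with the largest rises of the H3 shutoff change minus the wildtype change, with a point for each library. PSE1 stands at 1.43 and 1.47 in H3 shutoff at 3 hours and at 0.719 and 0.689 in wildtype at 3 hours.

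The 5 interiors at the other end had the largest falls of the strain difference in counts. Among them, SPO75 (YLL005C), a sporulation gene, had 241 and 180 read centers in H3 shutoff at 3 hours, against 283 and 281 at 0 hours, and 338 and 381 in wildtype at 3 hours, against 201 and 298 at 0 hours. EST2 (YLR318W), the reverse transcriptase of telomerase, had a read center level of 0.651 and 0.538 in H3 shutoff at 3 hours, against 0.879 and 0.877 at 0 hours, and 0.943 and 0.854 in wildtype at 3 hours, against 0.676 and 0.791 at 0 hours, in multiples of the genome mean. EST2 fell in H3 shutoff itself, with a log2 change of -0.57 (edgeR adjusted p = 0.000713), and so did PEP3 (YLR148W), of the vacuolar tethering complexes, with -0.43 (adjusted p = 0.0319). SPO75, BUD2 (YKL092C), of bud site selection, and RAD50 (YNL250W), of DNA break repair, had H3 shutoff changes of -0.43, -0.30 and -0.17 (adjusted p = 0.0861, 0.0563 and 0.320), while in wildtype all 3 rose, by 0.54, 0.47 and 0.58 (adjusted p = 0.0234, 0.00131 and 9.15e-05).

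The log2 differences between the strains were -0.98 for SPO75, -0.97 for PEP3, -0.86 for EST2, -0.76 for BUD2 and -0.75 for RAD50. All 5 calls were lost in DESeq2, where the log2 differences ran between -0.97 and -0.73, and without H3 shutoff replicate 4 and without wildtype replicate B. That of BUD2 was also lost without the culture as a block (edgeR adjusted p = 0.0527). In each of them wildtype replicate B at 0 hours had the lowest count of the 4 wildtype libraries, for example 226 in PEP3, where replicate C had 356.

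The 10 longest genes hold the deepest interiors. REA1 (YLR106C), an ATPase of ribosome assembly, is listed on chromosome 12 between 348856 and 363868 (sacCer1) on the Crick strand, with an interior of 13512 bp. Its regularity was -0.12 and -0.12 in H3 shutoff at 3 hours, against -0.03 and -0.19 at 0 hours, and 0.01 and -0.05 in wildtype at 3 hours, against -0.06 and -0.13 at 0 hours. By this measure no group had regular positions shared between cells there, and spacing along single molecules was not measured. Its median spread was 41.1 and 39.8 bp in H3 shutoff at 3 hours, against 40.9 and 41.7 bp at 0 hours, and 41.5 and 41.4 bp in wildtype at 3 hours, against 38.6 and 38.1 bp at 0 hours. Wildtype at 0 hours was the sharpest group, and the difference between the strains was -3.92 bp (limma adjusted p = 0.250).

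DYN1 (YKR054C), the dynein heavy chain, is listed on chromosome 11 between 534983 and 547531 on the Crick strand. Its median spread was 40.1 and 39.2 bp in H3 shutoff at 3 hours, against 40.3 and 39.99 bp at 0 hours, and 40.2 and 40.9 bp in wildtype at 3 hours, against 36.5 and 37.7 bp at 0 hours, again with wildtype at 0 hours sharpest. The strain difference in spread was below 0 in all 10 genes, between -6.43 bp in SEN1 (YLR430W), an RNA helicase, and -2.02 bp in FAS1 (YKL182W), a subunit of fatty acid synthase, and none passed the test (lowest limma adjusted p = 0.0630). In regularity none of the 10 passed either (lowest adjusted p = 0.217). POL2 (YNL262W), the catalytic subunit of DNA polymerase epsilon, had a regularity of 0.06 and 0.11 in H3 shutoff at 3 hours, against 0.18 and 0.25 at 0 hours, and 0.33 and 0.44 in wildtype at 3 hours, against 0.23 and 0.55 at 0 hours.

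The read center level did change in some of the longest genes. DYN1 had 0.883 and 0.723 in H3 shutoff at 3 hours, against 1.00 and 1.01 at 0 hours, and 1.08 and 1.07 in wildtype at 3 hours, against 0.819 and 0.917 at 0 hours, in multiples of the genome mean. Its log2 difference was -0.64 ± 0.13 (SE; edgeR adjusted p = 5.00e-05). VPS13 (YLL040C), a lipid transfer protein, CSF1 (YLR087C) and HFA1 (YMR207C), a mitochondrial acetyl-CoA carboxylase, had log2 differences of -0.53, -0.40 and -0.35 (adjusted p = 0.000971, 0.0154 and 0.0418). FAS1 went the other way with 1.22 and 1.31 in H3 shutoff at 3 hours, against 1.05 and 0.996 at 0 hours, and 0.752 and 0.852 in wildtype at 3 hours, against 1.04 and 0.925 at 0 hours, and a log2 difference of 0.59 ± 0.13 (adjusted p = 0.000268). The others, REA1, FMP27 (YLR454W), TOR2 (YKL203C), SEN1 and POL2, had adjusted p between 0.134 and 0.662. The calls of the falls in DYN1, VPS13, CSF1 and HFA1 were lost without H3 shutoff replicate 4. DESeq2 called 2 interiors lower in the difference, so that not all of these falls held there.

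Grouped by transcript length, wildtype interiors and H3 shutoff interiors at 0 hours were less regular in the longest genes. H3 shutoff interiors at 3 hours were low at each length. Longer genes have longer interiors that reach deeper, so that length and depth cannot be told apart here. For the 103 genes of 2500 to 3000 bp the median regularity was -0.01 in H3 shutoff at 3 hours, against 0.15 at 0 hours, and 0.54 in wildtype at 3 hours, against 0.34 at 0 hours. For the 26 genes of at least 5000 bp it was -0.03 in H3 shutoff at 3 hours, against 0.05 at 0 hours, and 0.17 in wildtype at 3 hours, against 0.06 at 0 hours. Across the interiors, which are not independent replicates, the regularity of the strains had a Pearson r of 0.09 and a Spearman rho of 0.08 at 3 hours, and of 0.73 and 0.72 at 0 hours. For the level per interior r was 0.48 at 3 hours and 0.93 at 0 hours.

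The members were also grouped by function and described by counts and medians only. For reading these counts, 17.1% of all interiors rose in count in H3 shutoff, and the count difference was higher in 20.2% and lower in 10.9% of them, against 12.6% and 11.2% of all segments. The regularity difference was lower in 32.7% of all interiors, against 68.4% of all segments. Of 9 ribosome biogenesis genes 2 gained read centers in H3 shutoff, where 8.24% of all segments rose, and 0 lost them. They were UTP21 (YLR409C), with a log2 change of 0.60, and UTP13 (YLR222C), with 0.51, both of the small subunit processome. In the difference between the strains 4 were higher, with a median of 0.30 over the 9 genes, against 0.03 over all interiors. Of 9 genes of the nuclear pore and nuclear transport 3 had a higher count difference, PSE1, KAP95 (YLR347C) and NUP100 (YKL068W). The H3 shutoff spread of 2 of them fell, NUP100 by a change of -8.26 bp and NUP133, with a median of -2.73 bp over the list, against 0.787 bp over all interiors, of which 2.33% fell (all segments 1.33%).

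Of 6 vacuolar sorting and endosome genes the regularity difference was lower in 3 (all interiors 32.7%), PEP3, PEP5 (YMR231W) and VPS34 (YLR240W), and the count difference in 2, PEP3 and VPS13. Of 10 zinc cluster transcription factors the regularity difference was lower in 4, among them CAT8 (YMR280C), an activator of gluconeogenic genes, with -0.93. The median over the 10 was -0.26, against -0.29 over all interiors. Of 13 genes of chromatin, replication and genome maintenance it was lower in 3, SMC6 (YLR383W) with -0.71, RSC2 (YLR357W), of a chromatin remodeler, with -0.62 and SIR3 (YLR442C), a silencing protein, with -0.59. The count difference of these 13 was higher in 1, SPT5 (YML010W), a transcription elongation factor, with 0.89, and lower in 2, RAD50 and PDS5 (YMR076C), of cohesin.

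Over all interiors the count difference was, as above, higher in 20.2% and lower in 10.9%. Of 5 ABC transporters the count difference was higher in 1, STE6 (YKL209C), the a-factor exporter, with 0.80, and lower in 3. Of 10 actin, microtubule and polarity genes it was higher in 3, with 0.61 in the myosin MYO5 (YMR109W), and lower in 2, DYN1 and SPH1. Of 8 protein and lipid kinases it was higher in 2, SKY1 (YMR216C) and CLA4 (YNL298W), and lower in 1, PSK1 (YAL017W). Of 5 glucan synthase and flocculin genes 0 passed in the count difference by edgeR. There FKS1 (YLR342W), a glucan synthase, rose in both strains, with log2 changes of 0.58 in H3 shutoff and 0.34 in wildtype. The flocculins FLO1 (YAR050W) and FLO9 (YAL063C) both had -0.27 in H3 shutoff, which is uncertain because they share sequence and fragments may be split between them.

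At the level of single nucleosomes, read centers were counted in 100-bp windows around 62821 centers called in the pooled libraries, 2770 of them in the interiors. Most of the pooled libraries were not depleted of H3. Read centers that move or spread at 3 hours leave these windows, so that a lower window count need not be a lost nucleosome. The share of interior read centers in these windows was 59.5% and 61.7% in H3 shutoff at 3 hours, against 61.1% and 61.3% at 0 hours, and 63.4% and 62.0% in wildtype at 3 hours, against 66.0% and 63.4% at 0 hours. Over the genome the share was 62.2% and 63.5% in H3 shutoff at 3 hours, against 74.2% and 74.0% at 0 hours, and 78.6% and 78.1% in wildtype at 3 hours, against 79.9% and 78.3% at 0 hours. The interior share changed by -0.644 ± 1.45 percentage points in H3 shutoff, against -11.3 ± 1.04 over the genome (SD, n = 2 each). These changes do not have equal starts, since the interior share in H3 shutoff was already the lower at 0 hours. Read centers laid evenly would also fall in part in the windows, which leaves a low share less room to fall. The part of this in the smaller interior change was not tested.

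Of 2738 interior windows tested with edgeR under equal library sizes 188 rose and 150 fell in H3 shutoff at an adjusted p under 0.05, where 5.29% of all windows rose and 22.5% fell. In wildtype 8 rose and 21 fell (all windows 0.570% and 1.32%), and the difference between the strains was higher in 190 and lower in 126 (4.72% and 16.7%). The median log2 change in H3 shutoff was -0.08 over interior windows and -0.36 over all windows. TMM normalization moved the median of all windows to -0.01 and that of interior windows to 0.27. In H3 shutoff it gave 461 interior windows higher and 25 lower (6755 and 4502 of all 60666 windows). In the difference it gave 394 higher and 34 lower (5690 and 3636 of all). DESeq2 called 38 higher and 1 lower in H3 shutoff (977 and 187 of all). The balance of directions thus rests on the scaling, over all windows as well. The part of the choice of windows in it was not tested.

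The count of interior windows called in H3 shutoff was 28 without H3 shutoff replicate 4 and 81 without replicate 3. In the difference it was 62 and 145 without these and 196 without wildtype replicate B. In wildtype it was 2 without replicate B, 139 without replicate C, 14 without H3 shutoff replicate 3 and 45 without H3 shutoff replicate 4.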

How the data were processed

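Paired-end MNase-seq libraries of 4 cultures at both times were used. The authors aligned reads with Bowtie 0.12.6 (the version credited to the submitters' processing notes) to sacCer1, kept pairs 100 to 200 bp apart, removed rDNA and drew an equal number of fragments for each library. The deposited nucleosome calls hold counts of read centers for each nucleosome, its position, protected length and spread in bp, and a fraction (the share of read centers on the center base, deposited by the authors and not used here). Replicates were not pooled by the authors.

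Transcript starts and ends came from the study's list, held here in part. Chromosome 10 was left out, as were sequences, for which no genome was at hand. The members and gene lists were chosen with earlier results of these data known.

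Read centers were smoothed with a Gaussian s.d. of 10 bp. Counts in segments and in 100-bp windows (at least 80 read centers over the 8 libraries) were tested with edgeR 4.0.16 by quasi-likelihood, and regularity and median spread (at least 3 calls a segment) with limma 3.58.1 in R 4.3.3, with the culture as a block, equal library sizes and Benjamini-Hochberg adjustment at 0.05. DESeq2 1.42.0 and TMM were alternatives, as were other fragment lengths, smoothing, interior limits and leaving out each culture. The SE given with an edgeR log2 difference was worked back from that difference and its quasi-likelihood F statistic. The tests were tried on simulated data. By the study's methods both time points of a replicate came from 1 culture. The deviations of paired libraries had a correlation of 0.10 in H3 shutoff and 0.21 in wildtype over the interiors. Whole-interior measures were compared per culture by exact permutation tests. Named genes were the 10 longest, the 5 largest rises and 5 largest falls called in the strain difference of each measure, and examples from the lists. Python 3.11.15, numpy 2.4.6 and pandas 2.3.3 were used. The edgeR, limma and DESeq2 p-values rest on the spread between these few cultures and on variance shared over all segments or windows. They do not reach beyond these cultures.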

Additional observations from a re-analysis of the deposited data

Results flagged for a closer look

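The following interior results differed between H3 shutoff and wildtype under the same contrast, 3 hours against 0 hours. The height of the first autocorrelation repeat was lower at 3 hours in both H3 shutoff cultures and higher in both wildtype cultures, with a difference of -0.217. It stands here for that opposite direction, and with 2 cultures a strain the exact permutation test can give no p below 0.333.

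By the test of the difference itself, 80 interiors were called in read center counts and 316 interior windows (edgeR), and 85 interiors in regularity and 17 in spread (limma), each at an adjusted p under 0.05. In the direction with more calls over all features, the counts were higher in 20.2% of the interiors, against 12.6% of all segments, windows were lower in 4.60% against 16.7%, regularity was lower in 32.7% against 68.4%, and spread was higher in 1.95% against 37.0%. In H3 shutoff at 0 hours the interiors were already less regular and broader than the first 1000 bp of the same genes. The shares for regularity and spread thus do not compare equal starts. In counts the largest log2 differences were -0.98 in SPO75, -0.97 in PEP3, -0.86 in EST2, -0.76 in BUD2 and -0.75 in RAD50 on the lower side and 1.04 in PSE1, 1.01 in YEF3, 1.00 in PEX6, 0.96 in PFK2 and 0.94 in NAM7 on the higher side. In regularity they were -1.64 in USA1, -1.12 in MNN4, -1.11 in GSY2, -1.02 in SWI6 and -1.01 in STE23, and 0.58 in STO1 on the higher side. In spread they were, in bp, -9.96 in SPH1, -9.08 in TRK2, -8.95 in NUP133, -8.94 in PPR1 and -8.80 in STO1 on the lower side and 12.1 in RIX7, 10.6 in OCT1, 8.59 in STE23, 8.19 in SGD1 and 7.76 in SIN4 on the higher side. STE23 and STO1 were named by both regularity and spread. The cause of these differences was not tested.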

How the results depend on the processing

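With fragments of 140 to 160 bp the change of the lag was -3.0 bp in H3 shutoff, -1.5 bp in wildtype and -1.5 bp for their difference, opposite to all fragments, and that of the level was 0.00303, 0.0612 and -0.0582. The level difference was also below 0 with interiors from 1500 bp on (-0.0229) and in transcripts of at least 3500 bp (-0.0537, from 0.00406 in H3 shutoff and 0.0578 in wildtype), and without H3 shutoff replicate 3 (-0.0105). In those transcripts the spread changed by -0.106 bp in H3 shutoff and the interior minus first height by 0.0312 in wildtype. Within 70 bp of the center the spread changed by -1.43 bp in H3 shutoff and 0.313 bp in wildtype, and by -1.63 and 0.214 bp with fragments of 140 to 160 bp as well (both chosen after seeing the data). With smoothing of 20 bp the interior minus first height changed by 0.655 in H3 shutoff and 0.0470 in wildtype. The cause of these shifts was not tested.

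Of calls, in H3 shutoff, wildtype and the difference, fragments of 140 to 160 bp gave 34, 1 and 49 for regularity and 14, 34 and 31 for counts, and 138 windows in H3 shutoff and 92 in the difference. Over all 1275 segments they gave, lower and higher, 767 and 9, 0 and 6, and 752 and 1 for regularity. For counts these were 39 and 36, 94 and 41, and 38 and 75. Of all 54966 windows 6356 fell and 1867 rose in H3 shutoff. DESeq2 gave 9, 13 and 17 interiors and 39, 0 and 41 windows (86 wildtype windows at an unadjusted p under 0.05). Over all segments it gave, lower and higher, 2 and 17, 14 and 8, and 8 and 28. Smoothing of 20 bp gave 20 wildtype interiors in regularity (all segments 8 lower and 91 higher). Calls with more than 20 read centers gave 1 wildtype interior in spread (all segments 7 and 4). Without the culture as a block, counts gave 36 interiors in H3 shutoff and 35 in wildtype, and windows 9 in wildtype. With the block crossed in the wildtype these were 32, 34 and 18. By direction, interior counts then gave 25 higher and 7 lower in H3 shutoff, 14 and 20 in wildtype and 33 and 21 in the difference, and lower windows numbered 97 in H3 shutoff and 77 in the difference. The block moved no other total over both directions by more than 1.5 times.

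With each culture left out in turn, the ranges were -0.116 to -0.036 in H3 shutoff, 0.046 to 0.236 in wildtype and -0.313 to -0.122 for the difference for the height, 3.0 to 10.0 in H3 shutoff, 1.0 to 3.0 in wildtype and 1.0 to 8.0 for the difference for the lag in bp, 0.0281 to 0.665 in H3 shutoff, 1.65 to 2.33 in wildtype and -1.98 to -1.31 for the difference for the spread in bp, 9 to 21.5 in H3 shutoff, 3 to 7 in wildtype and 4 to 16.5 for the difference for the spacing in bp, 0.0159 to 0.0655 in H3 shutoff, 0.0127 to 0.0401 in wildtype and -0.0105 to 0.0392 for the difference for the level and 0.516 to 0.596 in H3 shutoff, 0.0535 to 0.0788 in wildtype and 0.449 to 0.530 for the difference for the interior minus first height. Counts of calls ranged over 22 to 86 in H3 shutoff, 9 to 36 in wildtype and 35 to 108 in the difference for regularity, 0 to 61 in H3 shutoff, 2 to 61 in wildtype and 19 to 82 in the difference for read center counts, 10 to 25 in H3 shutoff, 0 to 2 in wildtype and 3 to 10 in the difference for spread and 28 to 488 in H3 shutoff, 2 to 139 in wildtype and 62 to 444 in the difference for windows. Where 1 culture of a strain remained, it was taken to vary like the other strain. Calls over all features moved in these fits as well, so that the moves are not particular to the interiors. With 2 cultures a strain the exact test cannot pass 0.05, and equal library sizes hide an even loss of nucleosomes. Depth gave a median of 41 to 46 read centers in an interior window.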
